A study of Homo sapiens with 4 samples.

Results

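Integrins are cell surface receptors, each built from an alpha and a beta subunit, that bind matrix proteins or counter-receptors on other cells. Here 10 integrin subunit genes of leukocytes and of matrix binding were followed: ITGAM, ITGAX and ITGAL with their shared partner ITGB2, and ITGA4, ITGA5, ITGAV, ITGB1, ITGB5 and ITGB7. Every probe set whose platform annotation names a member as its only gene was taken, which gave 27 of the 54613 probe sets and 10 of the 19775 genes on the array.

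The cells were U937, an established human line of monocytic character derived from a histiocytic lymphoma. The knock-down cells carried the hairpin shPIR#7 against PIR, which encodes the nuclear protein pirin, in the lentiviral vector pSICO-R, and the control cells carried the same vector empty. All were grown in RPMI-1640 with fetal calf serum and glutamine. The RNA of 3 extractions was combined in equal parts for each condition and run on 2 Affymetrix HG-U133 Plus 2.0 arrays, so the 4 arrays stand for 2 RNA pools. The labels name 1 hairpin and do not give the number of clones or infections. Both arrays of a condition thus hold the same RNA. SDs below (n = 2 arrays) cover hybridisation error alone, neither condition has a replicate culture, and no p-value was computed.

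The beta-2 integrins occur on leukocytes: ITGAM encodes CD11b, ITGAX CD11c and ITGAL CD11a, and each alpha chain pairs with the CD18 chain encoded by ITGB2. ITGB1 pairs with many alpha chains, among them those of ITGA4 (with fibronectin and VCAM1 as ligands), ITGA5 (fibronectin) and ITGAV; the alpha V chain also pairs with that of ITGB5 to bind vitronectin, and the alpha 4 chain with that of ITGB7. CD11b and CD11c are textbook surface markers of maturing myeloid cells.

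Levels are signal intensities, in arbitrary units, scaled by the authors to a common mean on each array. Differences are knock-down minus empty vector on the scale of log2(signal + 18); the added constant shrinks the differences of dim genes. A gene was counted as higher or lower when the pool means differed by 1 or more (2-fold), each of the 4 pairings of a knock-down with an empty-vector array differed by 0.5 or more the same way, and the higher pool reached the 60th percentile of signal on both of its arrays (116.4 to 125.5 units). That percentile is called the brightness limit here. A gene or probe set counts as measured if a pool passed this limit on both arrays, and the brightest probe set stands for its gene. Probe set names that end in _s_at or _x_at mark probes that match more than 1 transcript; 12 of the 27 integrin probe sets are of these kinds.

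Of the 10 integrin genes, 4 were higher in the knock-down pool by this rule, which called 3.54% of measured genes in either direction: ITGAM (3.74-fold), ITGB5 (2.32-fold), ITGA5 (2.21-fold) and ITGAV (2.13-fold). None was lower. Among all 10288 measured genes, 2.44% were higher and 1.10% lower by the same rule. ITGAX, ITGB2, ITGA4, ITGB1 and ITGAL were measured and stayed inside the 2-fold limit, and ITGB7 was below the brightness limit on all 4 arrays. ITGB5 was measured only through its knock-down arrays, whereas the other 8 measured members reached the limit on all 4 arrays. The median difference was 0.90 over the 9 measured members and 0.64 over all 10 genes. Over all measured genes it was 0.05, and over all genes on the array -0.0019. PIR itself read 83.4 and 91.5 with the hairpin and 1812.9 and 1881.7 without it, the direction the labels give. In these bulk RNA pools, a change in the number of cells that express a gene and a change of RNA per cell cannot be told apart.

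**Figure D1:**
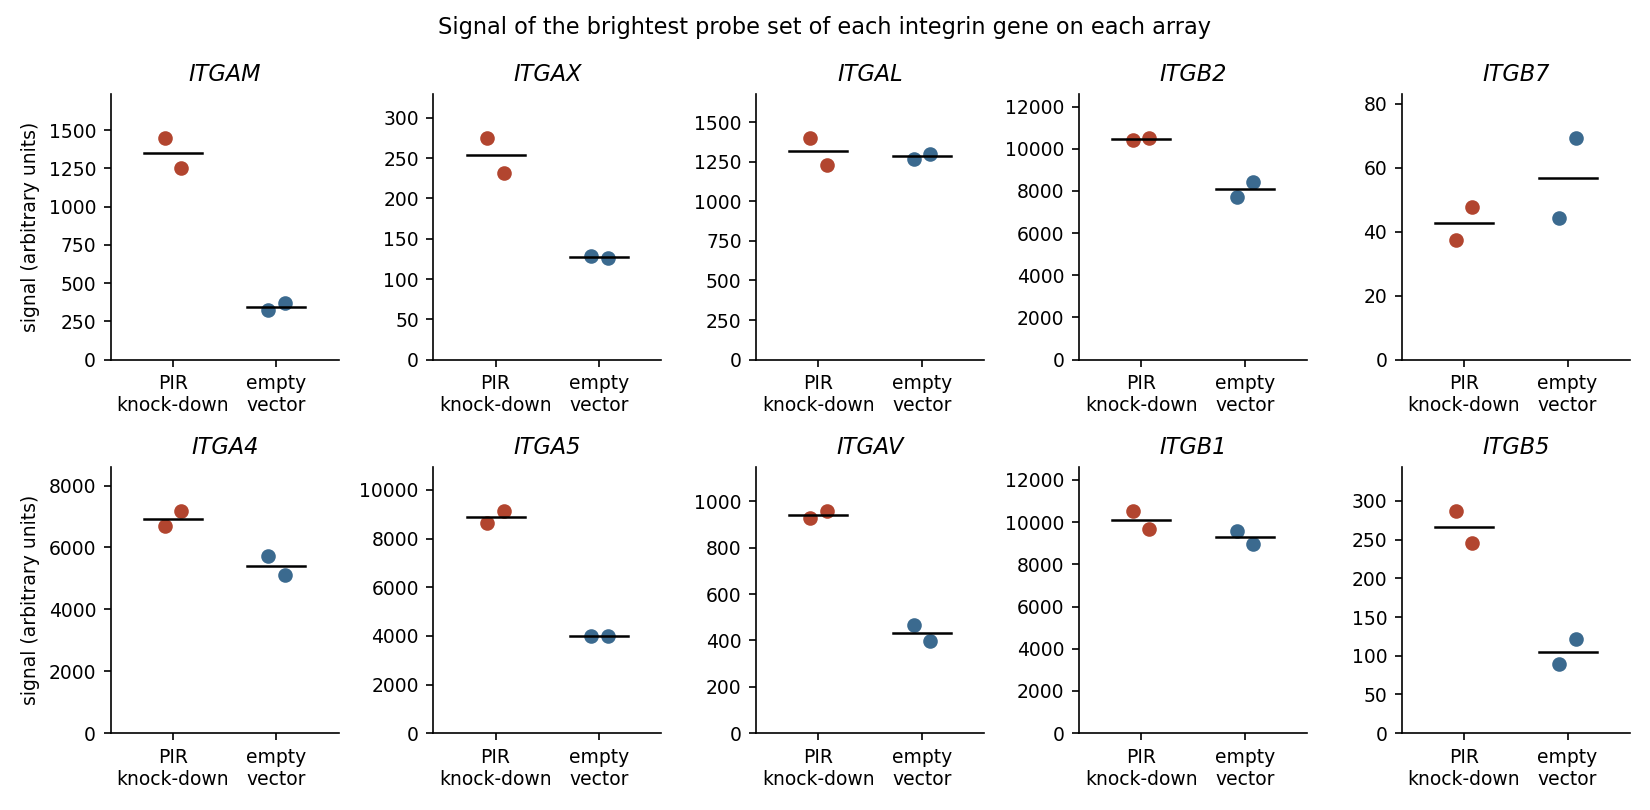
Signal in arbitrary units (linear axes from 0, a separate axis for each gene) of the brightest probe set of each of the 10 integrin genes; points are arrays, 2 per RNA pool, and black bars are pool means. The knock-down arrays lie above the empty-vector arrays for 8 genes, and the arrays of the pools overlap for ITGAL and ITGB7.

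ITGAM, the CD11b chain of the complement receptor that myeloid cells use to bind iC3b, fibrinogen and ICAM1, had the largest difference of the 10. Its bright probe set, 205786_s_at, read 1449.5 and 1250.4 in the knock-down pool against 323.8 and 370.5 with the empty vector. Both knock-down arrays were thus far above both empty-vector arrays, and the difference was 1.90, with array pairs from 1.71 to 2.10. Only 16 of the 10288 measured genes had a larger positive difference. The second ITGAM probe set, 205785_at, was dim on every array (112.8 and 94.9 against 59.8 and 37.2) and gave 0.89, with array pairs from 0.54 to 1.24. The size of the ITGAM difference therefore rests on 205786_s_at, and without _s_at and _x_at probe sets ITGAM, then represented by 205785_at, did not meet the rule.

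ITGAX, the CD11c chain found on macrophages and dendritic cells, lay just outside the rule. Its signals on 210184_at were 275.0 and 231.3 with the hairpin and 128.1 and 125.7 with the empty vector, the latter close to the brightness limit. The arrays of the pools did not overlap, and the difference was 0.90, with array pairs from 0.77 to 1.03. Without knock-down replicate 2 it was 1.02 and met the rule. The other ITGAX probe set, 1563003_at, was below the limit on every array, at 10.0 and 37.7 against 31.5 and 55.2, and gave -0.61 with overlapping arrays. With both probe sets averaged the ITGAX difference was 0.15 and the gene was not measured. Among the 9 measured members, ITGAV at 1.09 was the nearest inside the limit and ITGAX the nearest outside.

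ITGAL, the CD11a chain of the lymphocyte function antigen LFA-1, did not separate the pools. It read 1399.9 and 1228.6 against 1265.0 and 1299.6, a difference of 0.03, with array pairs from -0.08 to 0.14. The empty-vector values lay between the knock-down values. Its second measured probe set, 213475_s_at, gave -0.09 and also overlapped.

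ITGB2, the CD18 chain shared by all of these, was bright in both pools. Probe set 202803_s_at read 10424.1 and 10520.1 against 7710.1 and 8438.5, and 1555349_a_at read 8222.9 and 7948.3 against 6178.5 and 6314.5. Both probe sets put the knock-down arrays above the empty-vector arrays, by 0.38 and 0.37, so they differed from each other by less than the spread between array pairs. The dimmer 236988_x_at gave 0.15, and its array pairs ran from -0.01 to 0.31.

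The alpha chains that share ITGB2 thus had unequal differences. On each array the log2 value of an alpha chain was set against that of ITGB2, and the change of this ratio between pools was 1.53 for ITGAM (array pairs 1.39 to 1.67), 0.52 for ITGAX (0.32 to 0.72) and -0.34 for ITGAL (-0.49 to -0.20). On the brightest probe sets, used here, the array pairs of the 3 chains did not overlap one another. The dim ITGAM probe set 205785_at gave a difference of 0.89, near the 0.90 of ITGAX on 210184_at. The dim ITGAX probe set 1563003_at gave -0.61. The gap between these chains thus depends on the probe sets. The ratios to ITGB2 do not depend on the scaling of whole arrays, apart from the added constant of 18. They compare changes and not levels, since signals of different probe sets have no common unit.

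ITGA5, the alpha chain of the classical fibronectin receptor, was higher with the narrowest spread of the 4 genes that met the rule. Its sole probe set, 201389_at, read 8649.3 and 9118.1 in the knock-down pool against 3999.9 and 4005.7 with the empty vector. The difference was 1.15, with array pairs from 1.11 to 1.19, and 174 measured genes had a larger positive difference. ITGA5 met the rule under all 14 alternative settings tried. Not all of these could change the call. Looser limits cannot remove it, and with a sole probe set the value stayed the same under other probe set choices.

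ITGAV, the alpha chain of several vitronectin-binding integrins, was higher at a lower signal. It read 926.3 and 956.9 against 468.6 and 398.4 on 202351_at, its sole probe set, a difference of 1.09 with array pairs from 0.96 to 1.23. The arrays of the pools were well apart. Because the difference lies near the 2-fold limit, the call was lost without empty-vector replicate 2, when it was 0.98.

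ITGB5, the beta chain that pairs with alpha V, gave probe sets that disagreed. The probe set 214020_x_at read 286.5 and 246.2 against 89.5 and 121.4, both of the latter below the brightness limit, and met the rule at 1.21, with the smallest array pair at 0.92. The other measured probe set, 201125_s_at, read 194.2 and 135.4 against 144.7 and 128.8, with overlapping arrays and a difference of 0.22. The dim probe sets 214021_x_at and 201124_at gave 0.67 and 0.37, the latter with array pairs from -0.51 to 1.25. Without knock-down replicate 2, 201125_s_at was the brightest and the ITGB5 value fell to 0.46, outside the rule, so the call depends on which probe set stands for the gene.

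ITGA4, the alpha chain of the VCAM1 receptor VLA-4, was bright and modestly higher on each of its 4 probe sets. Its brightest, 213416_at, read 6699.8 and 7166.4 against 5715.6 and 5111.3, a difference of 0.36. The largest difference, 0.74, was on 205885_s_at, with signals of 4820.1 and 5250.5 against 2971.4 and 3050.4. The remaining probe sets, 243366_s_at and 205884_at, gave 0.42 and 0.49. The pools did not overlap on any of the 4, and none reached 2-fold.

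ITGB1, the most widely shared beta chain, had the brightest signals on 211945_s_at, at 10507.4 and 9667.1 against 9578.9 and 8967.8. The lower knock-down array exceeded the higher empty-vector array by only 0.01 on the log2 scale, and the difference was 0.12. The measured probe sets 1553530_a_at and 1553678_a_at gave 0.42 and 0.17 without overlap. The other 4 ITGB1 probe sets had signals of at most 50.7 on any array and differences of both signs, from -1.14 to 0.52; they lie far below the brightness limit. With all 7 averaged the ITGB1 difference was -0.04, so its sign depends on how dim probe sets are used.

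ITGB7, the beta chain of the gut-homing integrin and of the E-cadherin receptor of intraepithelial lymphocytes, was not measured. Its signals were 37.4 and 47.9 against 44.2 and 69.4, overlapping and below the limit on each array.

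Alpha chains that pair with ITGB1 also moved unequally. Relative to ITGB1 on the same arrays, ITGA5 changed by 1.03 (array pairs 0.88 to 1.17) and ITGAV by 0.97 (0.82 to 1.12), whereas ITGA4 changed by 0.24 (0.10 to 0.38). The ratio of ITGA5 to ITGA4 changed by 0.79 (0.70 to 0.88). These ratios use the brightest probe set of each gene. The measured ITGB1 probe set 1553530_a_at gave 0.42, more than the 0.36 of ITGA4 on 213416_at. ITGA4 on 205885_s_at gave 0.74. The sign of the ITGA4 to ITGB1 change and the size of all these changes thus depend on the probe sets. Between ITGAV and ITGB5 on 214020_x_at the change was -0.12, with array pairs from -0.55 to 0.30. The other measured ITGB5 probe set, 201125_s_at, gave 0.22 where ITGAV gave 1.09, so this comparison depends on the ITGB5 probe set.

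**Figure D2:**
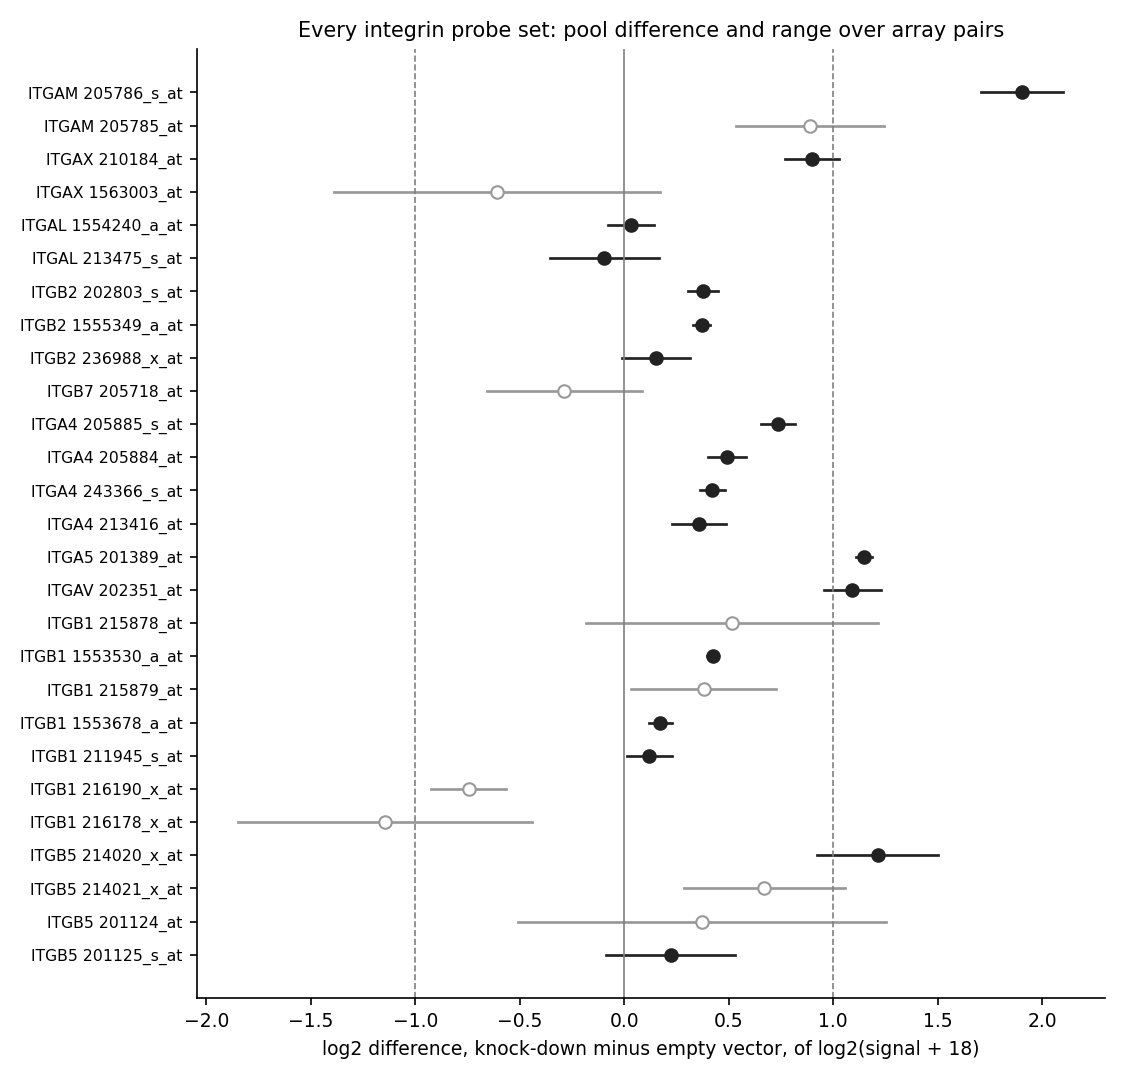
Log2 difference (knock-down minus empty vector, of log2(signal + 18)) of all 27 integrin probe sets; points are pool differences, lines span the 4 array-by-array differences, filled symbols are the 18 measured probe sets, open grey symbols the 9 below the brightness limit, and dashed lines mark 2-fold. Filled points of ITGA4 run from 0.36 to 0.74 and those of ITGB2 from 0.15 to 0.38, while those of ITGB5 lie at 0.22 and 1.21.

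Counted by probe set, 18 of the 27 were measured, 17 of them had a positive difference, and on 14 the knock-down arrays all lay above the empty-vector arrays. Among all 21933 measured probe sets, 52.1% had a positive difference and 37.4% did not overlap with the knock-down arrays higher. By the size rule 4 of the 18 were higher and none lower, against 2.29% and 1.45% of all measured probe sets. The probe sets of 1 gene are not independent of each other, since they report the same transcripts.

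By gene, 8 members had both knock-down arrays above both empty-vector arrays, none the reverse; among all measured genes 40.9% and 31.2% did so. Arrays that do not overlap between the pools were thus the usual case for measured genes.

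**Figure D3:**
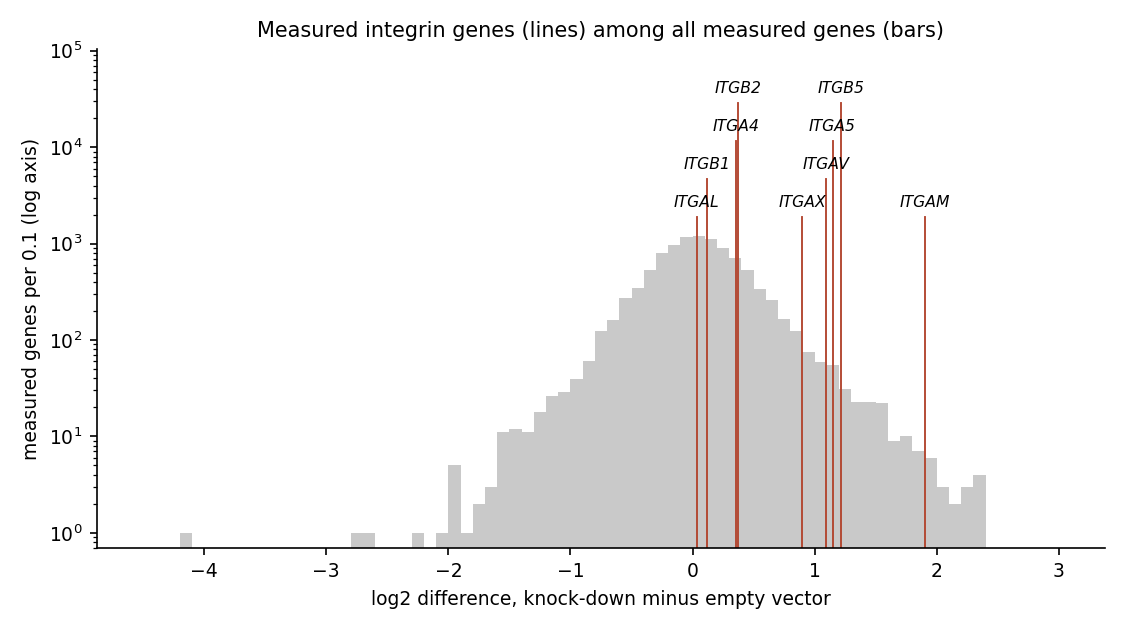
Distribution of the log2 difference (knock-down minus empty vector) over the 10288 measured genes in bins of 0.1 on a logarithmic count axis, with a line for each of the 9 measured integrin genes. ITGAL and ITGB1 lie at the centre of the distribution, and ITGAM at 1.90 lies in its upper tail.

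ITGAM and ITGAX are immediate neighbours on chromosome 16, followed by a further alpha chain gene, ITGAD, in the order of protein-coding genes in RefSeq (GRCh38.p14). ITGAD was below the brightness limit, at a mean of 42.2 (SD 26.02, n = 2 arrays) against 16.5 (SD 3.25). The genes flanking this trio, PYDC1 and COX6A2, were not measured either, and their arrays overlapped. ITGAL lies on the same chromosome but is flanked by other genes. SEPHS2, directly before it, differed by 0.32. Beside ITGA5 on chromosome 12, ZNF385A and GTSF1 differed by 0.37 and 0.47. Of the neighbours within 2 genes of a member that were on the array, none but ITGAM itself met the size rule. The measured genes directly beside the other members differed in both directions. They were PTTG1IP (0.26) and SLX9 (-0.17) at ITGB2, UBE2E3 (0.12) at ITGA4 and NRP1 (-0.02) at ITGB1. UMPS (-0.22) lay beside ITGB5, and ZNF740 (0.67) and RARG (-0.07) beside ITGB7.

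Promoter windows, from 250 bases before to 50 after a RefSeq transcription start (GRCh38.p14), were found for 7 members: ITGAM, ITGA4, ITGA5, ITGAV, ITGB1, ITGB5 and ITGB7. ITGAX, ITGAL and ITGB2 had no entry. The 150 bases directly before the outermost listed start are shown for the 4 genes that were higher, because these moved in the same direction; capitals mark GAGGAA, the core of sites for the myeloid factor PU.1, or a match to the NF-kB motif, on either strand.
ITGAM (chr16:31259825-31259974, plus strand): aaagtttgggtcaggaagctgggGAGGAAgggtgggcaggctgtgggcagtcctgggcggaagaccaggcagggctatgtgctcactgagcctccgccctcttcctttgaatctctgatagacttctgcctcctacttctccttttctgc
ITGA5 (chr12:54419267-54419416, minus strand): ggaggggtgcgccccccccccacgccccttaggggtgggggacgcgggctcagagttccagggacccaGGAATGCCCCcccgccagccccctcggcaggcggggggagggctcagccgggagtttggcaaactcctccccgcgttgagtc
ITGAV (chr2:186589906-186590055, plus strand): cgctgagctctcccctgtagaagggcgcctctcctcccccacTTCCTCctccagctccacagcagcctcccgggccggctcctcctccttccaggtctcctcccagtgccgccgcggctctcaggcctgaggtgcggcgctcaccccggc
ITGB5 (chr3:124901419-124901568, minus strand): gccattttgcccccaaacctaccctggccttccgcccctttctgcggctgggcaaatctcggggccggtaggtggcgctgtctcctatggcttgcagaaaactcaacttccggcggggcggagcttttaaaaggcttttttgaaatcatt

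The 4 sequences had no searched motif in common. GAGGAA was present in ITGAM at -127 and, on the opposite strand, in ITGAV at -108, with -1 the base before the start. It was absent from the ITGB5 window shown but occurred at -58 and -29 before another ITGB5 start, and it was also found for ITGB1 and ITGB7, which were not higher. Over all windows, 5 of the 11 entries of these 7 genes held it, against 27.9% of 35116 entries. The NF-kB motif, searched because pirin is known to bind the NF-kB partner BCL3, was found only in ITGA5, at -82, among the members and in 5.91% of all entries. Of the further motifs searched on both strands, GGGCGG, the GC box, was found in 6 of the 11 entries and in 45.0% of all. The RUNX motif TGTGGT occurred in 1 entry, that of ITGAM, and in 13.1% of all. The AP-1 motif TGANTCA occurred in 1 entry, that of ITGA5, and in 7.71% of all. The TATA box TATAAA occurred in 1 entry, of ITGB1, and in 11.5% of all. None of these motifs contains another. SPI1, which encodes PU.1, differed by -0.13 with overlapping arrays.

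Other integrin subunits were mostly too dim to compare. Of 16 listed, 15 were on the array and 3 were measured, and none met the size rule in either direction. ITGA6, a laminin receptor chain, read 2826 ± 178 (SD, n = 2 arrays) against 2819 ± 429.7, a difference of 0.01. ITGA7, also a laminin receptor chain, had the largest positive difference, 0.38, and ITGAE, the CD103 chain that pairs with ITGB7, the largest negative, -0.16. ITGA3, named after its value was seen, fell just short of being measured: its signals were 150.1 and 111.1, the latter below the limit, against 53.4 and 42.6 with the empty vector, a difference of 1.16. The platelet integrin chains ITGA2B and ITGB3, also singled out with values known, were below the limit in both pools.

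Genes that link integrins to the cytoskeleton and switch them between states were measured for 24 of the 31 on the array, out of 33 listed. Of the 24, 2 were higher by the rule and none lower, against 2.44% and 1.10% of all measured genes. The median difference was 0.18, against 0.05 over all measured genes. TLN2, a talin that binds beta chain tails, read 471.2 ± 20.9 against 185.3 ± 45.7, a difference of 1.28; its second measured probe set gave 0.76. PARVB, the beta parvin of the integrin-linked kinase complex, read 855.8 ± 6.29 against 404.9 ± 14.2, a difference of 1.05; its other 4 measured probe sets gave 0.09 to 0.78, and after quantile normalization the difference was 0.996 and the call was lost. TGFB1I1, a focal adhesion adaptor related to paxillin and named after its value was seen, stood at 0.998, directly below the limit. The major leukocyte talin gene TLN1 and the vinculin gene VCL, likewise chosen with values known, had 0.58 and 0.57. The largest negative difference was that of RASGRP2, the exchange factor that activates RAP1 in leukocytes, at -0.53 (1262 ± 102 against 1825 ± 20.1). FERMT3, the kindlin of blood cells, named after its value was seen, had -0.10.

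Integrin ligands were measured for 10 of 23 genes on the array, out of 25 listed, with 1 higher and none lower. Of all measured genes, 2.44% were higher and 1.1% lower. The median was 0.58, against 0.05 over all measured genes. With the dim ligands included it was 0.23, against -0.0019 over all genes on the array. Only 7 of the ligands reached the brightness limit on all 4 arrays. COL1A1 and COL4A1 were measured only through the knock-down arrays, and MADCAM1 only through the empty-vector arrays. ICAM2, a counter-receptor of the CD11a and CD11b integrins, read 1143 ± 138 against 487.9 ± 25.95, a difference of 1.19, and its second probe set gave 0.90. Further ligands of the beta-2 integrins, picked once their values were known, were ICAM1 at 0.75, ICAM4 at 0.61 and ICAM3 at 0.55, none of which met the rule. MADCAM1, the ligand of the ITGA4 and ITGB7 pair, was the only measured ligand with a negative difference, -0.08, and its arrays overlapped. FN1, the fibronectin gene, was below the brightness limit on all 7 of its probe sets, and VCAM1 on its sole probe set; both were singled out with values known.

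Membrane proteins that associate with integrins in the same membrane, such as tetraspanins, were measured for 8 of 10 genes; none met the rule and the median was 0.13. CD47, an integrin-associated protein that is also in the ligand list, had the largest positive difference, 0.70 (19886 ± 299.3 against 12228 ± 116). Its other measured probe sets gave 0.19 to 0.65, and the arrays of the pools overlapped on the one at 0.21. The size of the CD47 difference thus depends on the probe set. SLC3A2, the CD98 heavy chain that binds beta chain tails, had the largest negative, -0.29 (1682 ± 53.1 against 2056 ± 64.5). On the brightest probe set of each gene, the differences of 0.70 and -0.29 exceeded the spread between arrays, but they compare 2 RNA pools.

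**Figure D4:**
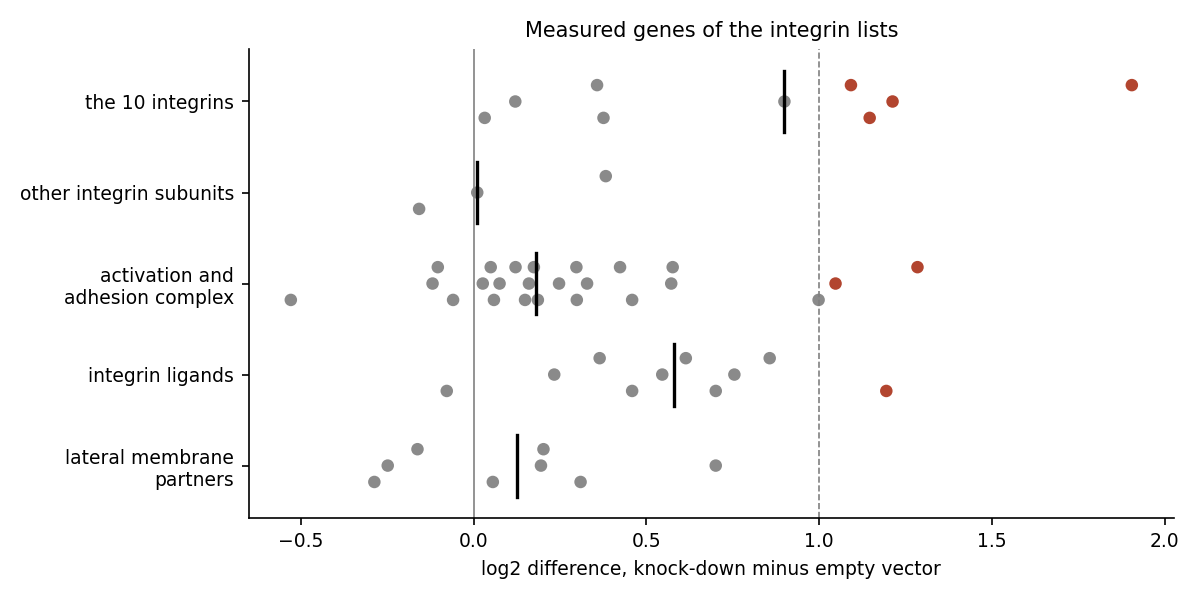
Log2 difference (knock-down minus empty vector) of each measured gene in the 10 integrins and in the 4 further lists; red points met the size rule, grey points did not, and black bars are list medians. The integrins hold 4 red points, the activation list 2 and the ligands 1, all to the right of the dashed 2-fold line.

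Monocytic identity and RNA quality were compared as a background to these values. Of 12 monocytic and myeloid markers, 10 were on the array under a sole symbol and 7 were measured; CD14, MPO and FCGR1A were below the brightness limit in both pools. None of the 7 met the size rule, with a median of 0.26 and CD4 highest at 0.84. Without overlap, 4 were higher (CD4, CSF1R at 0.69, TYROBP at 0.40, CEBPA at 0.26) and 1 lower (CEBPB at -0.15). Over all measured genes 40.9% and 31.2% did so. The summed signal of the 10 was 48792 to 52984 on the knock-down arrays and 47868 to 49042 on the empty-vector arrays. LYZ, at a mean of 27812 against 27444, made up the largest part of this sum, which says little about the dimmer markers. Of the markers of other cell types, 1 of 7 for T and NK cells (NKG7, at 0.37), 2 of 4 for B cells, 1 of 4 for platelets, 1 of 5 for fibroblasts and none of 2 for erythroid or 5 for epithelial cells were measured, and none of these met the rule. The summed T and NK signal, carried by NKG7, was 9488 to 9498 against 7152 to 7456, and its part in the integrin differences was not tested. The ratio of 3' to 5' signal was 0.98 to 1.00 for GAPDH on the knock-down arrays and 0.96 to 1.02 on the empty-vector arrays, and 1.17 to 1.18 for ACTB in both pools.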

How the data were processed

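The submitters' processing notes name GCOS; no version or setting is given in the sources used here. Each deposited value is a linear intensity for 1 probe set on 1 array, and the mean after trimming 2% at each end was 500.07 on each of the 4 arrays, so the authors' values are scaled to a common level. Of 54675 probe sets, 62 controls were left out, apart from the GAPDH and ACTB ratios; 41091 of the rest had 1 gene symbol, 1801 several and 11721 none. Symbols were updated by gene identifier, which matched for 41043. Detection calls were not used here. The number of arrays limits the technical precision alone. Without a replicate culture in either condition, the variation between cultures is unknown.

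Arrays of a pool were averaged as 1 sample and no test was run. The size rule was run on simulated data that held noise between arrays alone. They held no variation between cultures, so they cannot show how often the rule calls a difference between pools without an effect. The pseudocount of 18 is close to the 25th percentile of signal. Promoters are from RefSeq (GRCh38.p14). The text names all members, PIR, and, for each further list, genes that met the rule or had the largest difference in each direction, or completed a count of 5 or fewer; others are marked. The members and lists were chosen with earlier results of these data known. Alternatives were other pseudocounts, brightness limits, scalings, fold limits and probe set choices, and each array left out. Python 3.11.15, pandas 2.3.3, numpy 2.4.6 and matplotlib 3.10.9 were used.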

Additional observations from a re-analysis of the deposited data

How the results depend on the processing

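No integrin was lower by the size rule under any of the 14 alternatives. ITGA5 met it as higher under all 14, ITGAM and ITGAV under 13, ITGB5 under 9 and ITGAX under 3. These counts do not rank the genes, because looser limits cannot remove a call. Genes with a sole probe set also kept their value under other probe set choices. Without _s_at and _x_at probe sets, 2 genes and 2 probe sets of the integrins remained higher, ITGA5 and ITGAV. Of 140 member differences under the alternatives, 18 moved by more than the SD between arrays, and no called difference changed sign. Many of the 140 could not move. Other limits on brightness, fold or array pairs alter the rule and not the difference. Probe set choices could not move ITGA5, ITGAV or ITGB7, each with a sole probe set. Leaving out 1 array of a pool of 2 cannot shift a difference by more than this SD while the probe set stays the same. Among those settings only ITGB5 without knock-down replicate 2 moved, because another probe set then stood for the gene. ITGB5 was outside the rule with a pseudocount of 72 (0.93), with all its probe sets averaged (0.62), without _s_at and _x_at probe sets (0.37) and without knock-down replicate 2 (0.46), and it was not measured under the 75th percentile limit. With single arrays left out, 3 to 4 integrin genes and 3 to 5 probe sets were higher.

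Over all measured genes, 251 were higher and 113 lower. The counts were 718 and 391 with a 1.5-fold limit, 448 and 414 without the brightness limit, and 155 and 68 with probe sets averaged. Higher genes numbered 142 with the 75th percentile limit and 164 with a pseudocount of 72. With single arrays left out, 140 to 177 were lower, the most without empty-vector replicate 1. Scaling to a common median moved the median of all measured genes by 0.12 and the share of higher among called genes from 69.0% to 81.7%; ITGAX then met the rule at 1.01, or 0.85 relative to that median.

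No paired analysis was possible because both arrays of each condition hold the same RNA and no result comes from a test. Signals near or below the brightness limit, as for ITGB7, ITGAX and ITGB5, limit what these arrays show.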
